A study of Mus musculus with 3 samples.

Results

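Male gonads of mouse embryos of the MCH line that lacked Cyp26b1 (genotype Cyp26b1-/-) were compared between E14.5 and E12.5, the ends of a window of 3 stages that also held E13.5. The comparison rests on the E12.5 and E14.5 samples, 2 of the 3 samples of the series, and on the 4 arrays of these samples among 6 in all. Each sample was RNA of dissected whole gonads on 2 one-colour Agilent arrays, which the series' design text describes as biological duplicates. The labels do not say whether animals were pooled, so p-values measure only the spread between the arrays of a stage. Every gonad carried the deletion and no other genotype was analysed here, so the values describe the course of the mutant gonad. A slide of its own held the E12.5 arrays, and another held all 4 later arrays, so the stage difference and a slide difference cannot be told apart. In whole gonads, fewer cells of a type and less RNA per cell cannot be told apart either.

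Cyp26b1 encodes a cytochrome P450 enzyme that breaks down retinoic acid, and in the normal fetal testis it keeps this signal away from germ cells until after birth. In this window the Sertoli cells, which nurse the germ cells, enclose them in cords. Contractile peritubular cells form around the cords, steroid-making Leydig cells appear between them, and vessels and macrophages spread through the organ. The members of a germ cell list and a Leydig list are left aside here, and the other functions of the gonad are described. Other genes known from these cells remain among those described.

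Levels are log2 signals over the 75th percentile of the array's probes, so 0 is that percentile and 1 unit is 2-fold. A level of 1 probe cannot be set against that of another. Changes are E14.5 minus E12.5 on this log2 scale ± SE (limma, with n = 2 per stage). Between 65.3% and 68.8% of the probes were well above background on each of the 4 arrays, and 0 spots were saturated. The duplicate arrays had a Pearson r of 0.993 at E12.5 and 0.994 at E14.5 across genes, which are not independent replicates. The Cyp26b1 probe itself gave 4.96 and 4.73 at E12.5 and 4.27 and 3.83 at E14.5, and its place relative to the deletion is not known here. Its fall of 0.80 ± 0.17 was not past the threshold with 1 array left out (adjusted p = 0.0502 to 0.0645 without E12.5 array 1 or E14.5 array 2). The Y-linked genes Ddx3y, Eif2s3y and Kdm5d exceeded background on each of the 4 arrays and Xist on none, and 30 of the 33 Sertoli markers listed were tested.

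Of 13484 genes tested, 6299 passed an adjusted p of 0.05, which is 46.7% of all. More genes rose than fell: 3445 (25.5%) were higher at E14.5 and 2854 (21.2%) were lower. The counts of each list below are read against these shares. Changes of at least 2-fold were also more often rises, with 1251 genes higher (9.28%) and 673 lower (4.99%). Both arrays were above background only at E14.5 for 281 genes and only at E12.5 for 132. Without E14.5 array 2, 3937 genes passed, of which 1608 were lower. The split changed with the scaling: with each array centred on its median in place of its 75th percentile, 2364 genes were higher and 3389 lower, so that 41.1% of the calls were rises in place of 54.7%, against 60.4% with normexp background correction. Median scaling moved the median change over all genes from 0.03 to -0.12, so small shifts of a whole list are read against this move. In the lists below, numbers in brackets after a count are its rises and falls with the named array left out or with the named processing (normexp is another background correction), given where either moved by over 1.5 times and, for processing, reached at least 5.

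**Figure D1:**
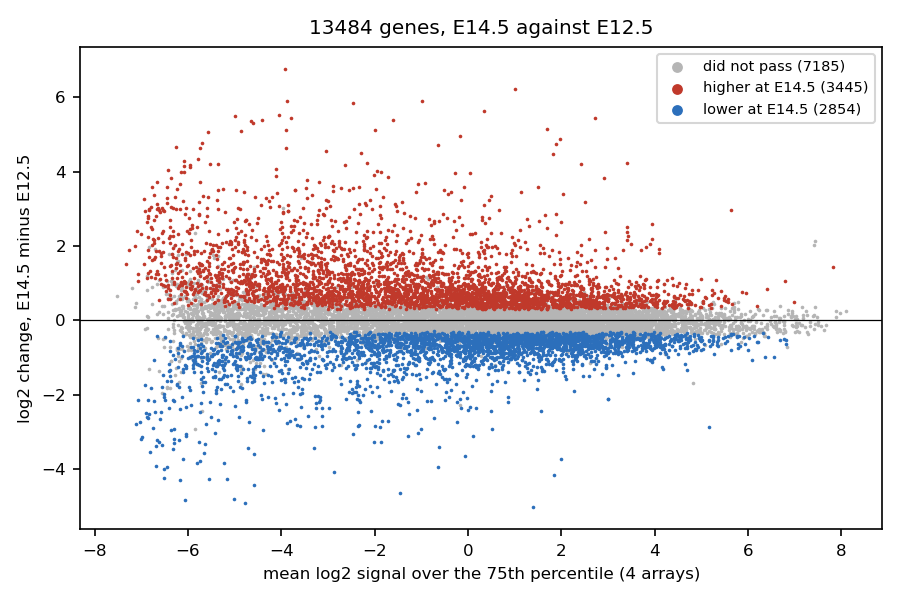
Each point is 1 of 13484 genes, with the mean log2 signal of the 4 arrays on the x axis and the log2 change from E12.5 to E14.5 on the y axis. Red points (3445) were higher and blue points (2854) lower at an adjusted p of 0.05, and grey points did not pass.

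Outside the germ cell and Leydig lists, the largest rise was that of Lypd4, a gene for a Ly6-type surface protein of the testis. Its log2 levels were -7.10 and -7.49 at E12.5 and -0.54 and -0.53 at E14.5. Neither E12.5 array was above background, and the rise was at least 53.2-fold (adjusted p = 0.000275). Sftpc, known as surfactant protein C of the lung, was likewise below background at E12.5, with levels of -6.10 and -7.56 at E12.5 and -1.21 and -0.66 at E14.5, and rose at least 36.7-fold. Only genes whose stages did not overlap were ranked, so every E14.5 array lay above both E12.5 arrays by choice. Adh1, an alcohol dehydrogenase that oxidises retinol among other alcohols, was measured at both stages, at -0.77 and -0.17 at E12.5 and 4.27 and 4.56 at E14.5. It rose 29.4-fold (4.88 ± 0.24, adjusted p = 0.000431), and its other probe gave 5.23. The E14.5 arrays of Adh1 lay far above its E12.5 arrays. Asb9, an adaptor of ubiquitin ligases, gave -4.59 and -4.03 at E12.5 and 1.22 and 0.95 at E14.5 and rose 42.0-fold.

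Npy, Clps, Colec10, Bcan and Ren2, genes best known from organs other than the gonad, were also among the 15 largest rises. Npy, the gene of the neuropeptide Y hormone, had levels of -5.77 and -4.86 at E12.5 and -0.89 and -0.62 at E14.5 and rose 23.6-fold (4.56 ± 0.29). Clps encodes colipase, the cofactor of pancreatic lipase. It gave -4.59 and -4.47 at E12.5 and -0.29 and 0.22 at E14.5 and rose 22.6-fold. Colec10, a collectin that binds sugars on microbes, rose by 4.65 ± 0.36 from -6.79 and -5.66 at E12.5 to -1.65 and -1.52 at E14.5, with 1 of its 2 E12.5 arrays above background. Bcan, the brain matrix proteoglycan brevican, had the widest duplicates of the leading rises, at -5.17 and -8.48 at E12.5 and -2.08 and -0.50 at E14.5, with 1 of its 2 E12.5 arrays above background. Its change was 5.53 ± 1.11, a call lost with 1 array left out (adjusted p = 0.0539 without E14.5 array 2). Ren2 encodes renin, which starts the angiotensin cascade. It rose 22.2-fold from -0.87 and 0.04 at E12.5 to 3.93 and 4.18 at E14.5, and its near-identical copy Ren1 rose by 4.20 ± 0.46, so that the probes of the pair may share signal.

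Of the remaining leading rises, Nxf2, an X-linked mRNA export factor, rose 34.7-fold, and Lonrf3, which encodes a RING finger protein, rose 30.8-fold. The testis factor Dmrtc2 rose 26.0-fold. Ccnb3, the gene of cyclin B3, rose at least 28.8-fold. The homeobox gene Esx1 rose at least 23.4-fold and 4930524B15Rik at least 19.6-fold, both from below background. Dmrtc2 and Ccnb3 are also known from germ cells, although they were not on the germ cell list set aside. The part of germ cells in the other leading rises was not tested.

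**Figure D2:**
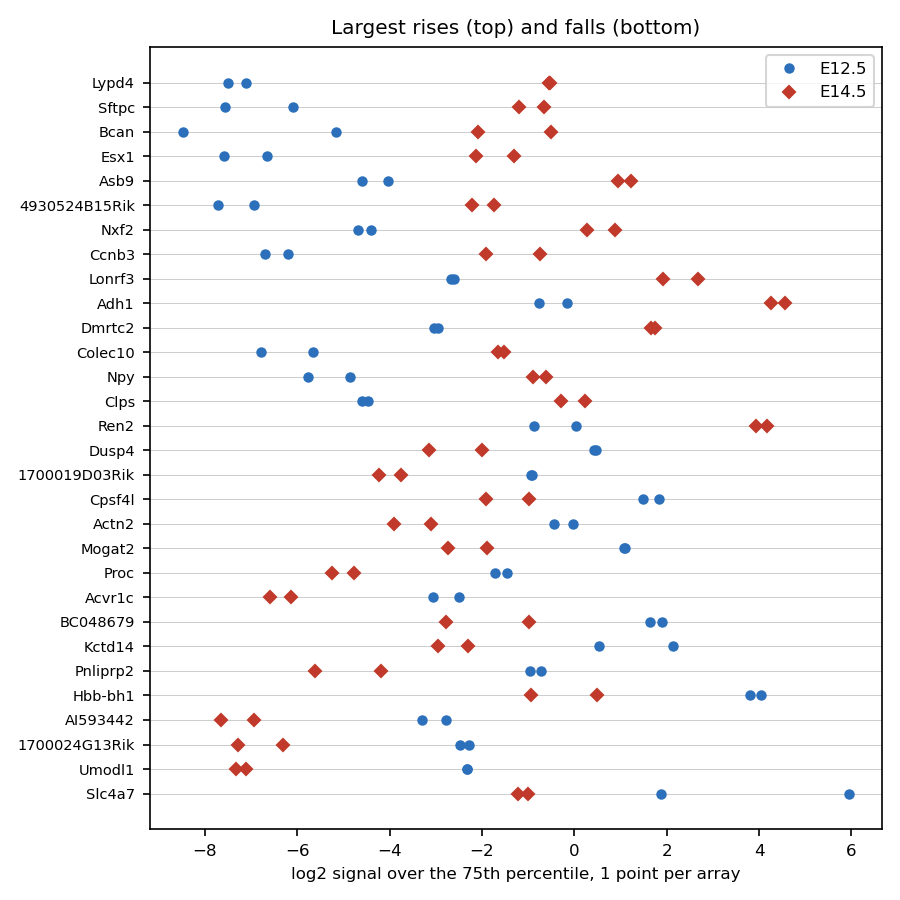
The log2 signal of each array over its 75th percentile is on the x axis, with the 15 largest rises at the top and the 15 largest falls at the bottom, blue circles for the 2 E12.5 arrays and red diamonds for the 2 E14.5 arrays. Only genes whose stages do not overlap were ranked, and the E12.5 arrays of Slc4a7 lie farther apart than any other pair.

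Among the falls, Hbb-bh1, an embryonic beta-type globin of the first red blood cells, stood at 3.81 and 4.05 at E12.5 and 0.50 and -0.94 at E14.5. It was 17.7-fold lower at E14.5 (-4.15 ± 0.45, adjusted p = 0.00167), and its other probe gave -5.09. Pnliprp2, a pancreatic lipase relative, gave -0.72 and -0.95 at E12.5 and -4.18 and -5.62 at E14.5 and was 16.7-fold lower. Umodl1, a uromodulin-like protein, fell below background, from levels of -2.33 and -2.32 to levels of -7.12 and -7.33, and was at least 15.9-fold lower. Mogat2, which makes diacylglycerol in the intestine, stood at 1.10 and 1.07 at E12.5 and -1.89 and -2.73 at E14.5 and was 10.5-fold lower. The falls too were ranked only among genes whose stages did not overlap.

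Acvr1c and Dusp4 were the signalling genes among the 15 falls. Acvr1c, the type I receptor ALK7 for Nodal and activin, was above background only at E12.5, gave -2.50 and -3.06 at E12.5 and -6.59 and -6.14 at E14.5 and was at least 11.3-fold lower, with its other probes at -4.26 and -2.97. Dusp4, a phosphatase that switches off MAP kinases, gave 0.43 and 0.46 at E12.5 and -2.00 and -3.15 at E14.5 and was 8.13-fold lower. Proc, the anticoagulant protein C, gave -1.71 and -1.45 at E12.5 and -4.78 and -5.24 at E14.5 and was 10.8-fold lower. Actn2, an alpha-actinin of muscle, was 9.64-fold lower, Kctd14 15.5-fold and Cpsf4l 8.62-fold. Of the genes known only by a clone name, 1700024G13Rik was at least 14.7-fold lower, AI593442 at least 9.65-fold, BC048679 12.5-fold and 1700019D03Rik 8.35-fold. The bicarbonate carrier Slc4a7 was at -5.02 ± 1.18 on its brightest probe, while its other probes changed by -0.38 and -0.01. Its call was lost with 1 array left out (adjusted p = 0.0565 to 0.0704 without E14.5 array 1 or 2, lost also with the robust prior), and no fall is read from it.

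**Figure D3:**
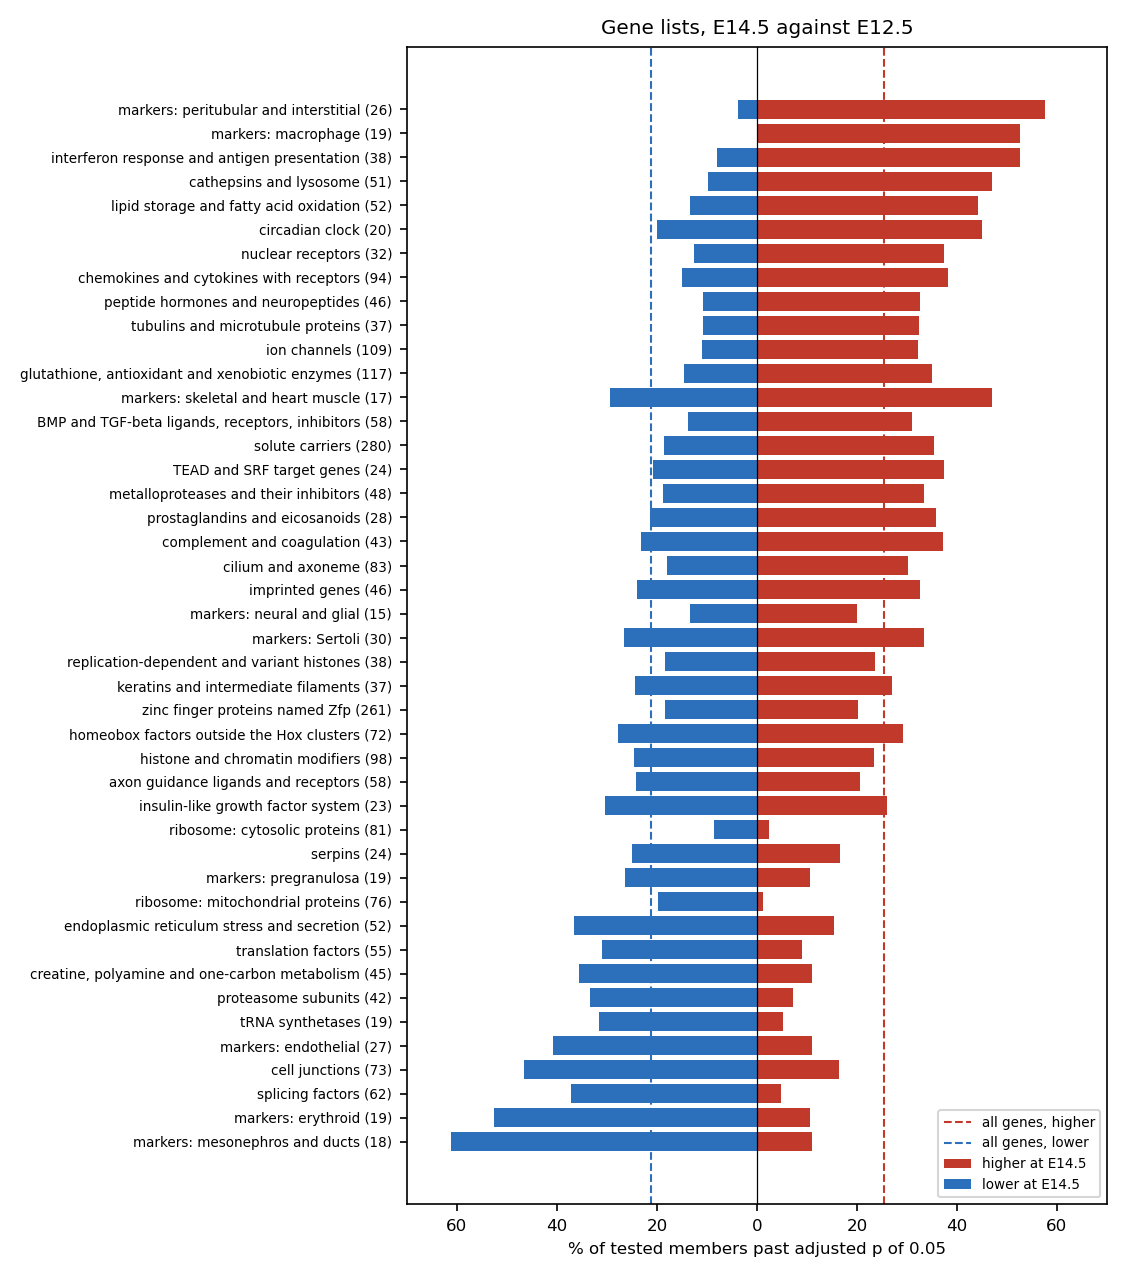
For each gene list with at least 15 tested members (number in brackets), the red bar is the percent of members higher at E14.5 and the blue bar the percent lower, at an adjusted p of 0.05 over all genes. Dashed lines are the same shares over all 13484 genes, 25.5% and 21.2%. The lists at the top are peritubular markers (57.7% higher), macrophage markers and interferon genes, and the list at the bottom is mesonephros and duct markers (61.1% lower).

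Genes of antigen presentation and the interferon response were more often higher than lower at E14.5. These genes serve defence: class I and class II MHC molecules show peptides to T cells, the immunoproteasome cuts the peptides, the Tap1 and Tap2 transporter loads them, and interferons switch much of the set on through STAT and IRF factors. Of 38 members tested, 20 rose, 3 fell and 15 did not pass (19 and 0 without E12.5 array 1, 16 and 1 without E12.5 array 2, 15 and 0 without E14.5 array 2), with a median change of 0.58, against 0.03 over all genes. The 52.6% that rose compare with 25.5% of all genes, and the 7.89% that fell with 21.2%. Median scaling gave 19 higher and 3 lower. Ifi204 and Ifi211 of the Ifi200 family, which are described at the end, were not on this list and fell, while Ifi209 rose.

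The promoters of 5 of the rising members are printed first, since 4 of them hold the core of the sequence that the interferon-activated STAT2 and IRF9 complex is known to bind and the fifth is shared by a pair of rising genes. Each line is the 250 bases before the start of the gene, 5′ to 3′ on the gene's strand, from RefSeq on GRCm38.p6, and capitals mark every match to GAAANNGAAA on either strand, overlapping matches run together. Isg15 (chr4:156200819-156201068, minus strand) encodes a ubiquitin-like protein, Oas1a (chr5:120907526-120907775, minus strand) a sensor of double-stranded RNA, Gbp3 (chr3:142559794-142560043, plus strand) a GTPase of cell defence, and H2-T23 (chr17:36032702-36032951, minus strand) the class I molecule Qa-1. Tap1 (chr17:34187306-34187555, plus strand) starts 226 bases from Psmb9, which runs the other way, so that this window covers the space between both genes.
Isg15: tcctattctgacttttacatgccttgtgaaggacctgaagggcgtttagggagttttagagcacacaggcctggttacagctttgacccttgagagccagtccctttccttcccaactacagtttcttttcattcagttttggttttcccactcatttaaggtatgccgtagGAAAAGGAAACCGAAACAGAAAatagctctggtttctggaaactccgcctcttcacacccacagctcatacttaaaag
Oas1a: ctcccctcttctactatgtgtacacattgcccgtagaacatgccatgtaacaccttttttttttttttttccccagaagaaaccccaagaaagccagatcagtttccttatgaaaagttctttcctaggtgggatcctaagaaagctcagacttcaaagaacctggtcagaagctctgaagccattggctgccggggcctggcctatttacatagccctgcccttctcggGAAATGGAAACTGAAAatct
Gbp3: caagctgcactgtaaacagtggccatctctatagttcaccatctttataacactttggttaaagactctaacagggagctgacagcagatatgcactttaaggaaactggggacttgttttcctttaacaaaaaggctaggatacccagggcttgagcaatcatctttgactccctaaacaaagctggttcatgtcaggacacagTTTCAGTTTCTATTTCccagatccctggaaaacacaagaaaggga
H2-T23: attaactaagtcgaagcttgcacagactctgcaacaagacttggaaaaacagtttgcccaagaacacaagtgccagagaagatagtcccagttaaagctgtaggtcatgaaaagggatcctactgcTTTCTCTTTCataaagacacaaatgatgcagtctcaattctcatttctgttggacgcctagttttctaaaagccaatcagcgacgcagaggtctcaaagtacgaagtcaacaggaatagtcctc
Tap1: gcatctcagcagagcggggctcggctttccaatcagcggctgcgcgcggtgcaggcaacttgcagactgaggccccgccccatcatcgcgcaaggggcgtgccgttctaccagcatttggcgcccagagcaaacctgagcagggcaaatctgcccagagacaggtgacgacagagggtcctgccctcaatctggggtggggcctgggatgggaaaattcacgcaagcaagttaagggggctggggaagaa
In Isg15 the 3 overlapping matches begin 78, 72 and 66 bases before the start, in Oas1a the 2 begin 20 and 14 bases before it, in Gbp3 the 2 lie on the other strand 45 and 39 bases before it, and in H2-T23 the 1 match lies on the other strand 124 bases before it. The letters are not in the Tap1 window. Over the list the match was in 5 of 16 rising members with a promoter entry, in 0 of 3 falling ones and in 6 of 11 that did not pass. Over all 27025 genes with an entry, 3.46% held it in the same window.

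Among the class I and class II genes, H2-Ab1 rose most. This beta chain of a class II molecule stood at -3.41 and -3.43 at E12.5 and -0.26 and -0.41 at E14.5, an 8.48-fold rise (3.08 ± 0.13, adjusted p = 0.000311), and its other probes gave 2.50 and 1.94. Its partner chain H2-Aa (0.31 ± 0.56, with -0.03 on its other probe) and the invariant chain gene Cd74 (0.54 ± 0.35) did not pass. H2-D1, a classical class I heavy chain, rose 3.71-fold from 0.83 and 0.88 at E12.5 to 2.61 and 2.88 at E14.5. H2-T23 gave 0.57 and 0.68 at E12.5 and 2.32 and 2.57 at E14.5 and rose 3.53-fold. In each of these 3 rising genes both E14.5 arrays lay above both E12.5 arrays, and B2m, the light chain of class I molecules, did not pass, at 0.39 ± 0.18 (adjusted p = 0.123). The other B2m probe gave 0.75.

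Genes that prepare peptides also rose. Tap1 gave -5.07 and -5.67 at E12.5 and -3.67 and -3.09 at E14.5 and rose 3.99-fold (adjusted p = 0.00328), and Tapbp, which bridges the transporter to class I, rose by 0.68 ± 0.12. Tap2, the partner of Tap1 in the transporter, was at 1.45 ± 0.51 and did not pass. The immunoproteasome genes Psmb9, Psmb8 and Psmb10 rose by 1.38 ± 0.34, 1.01 ± 0.17 and 0.62 ± 0.14. Of 42 proteasome subunits, 3 rose, 14 fell and 25 did not pass (2 and 6 without E12.5 array 2, 2 and 7 without E14.5 array 1, 2 and 6 without E14.5 array 2), and these 3 genes were the rises. The constitutive subunit Psmb7, whose place in the particle Psmb10 takes over, fell by 0.95 ± 0.12 from 3.74 and 3.82 at E12.5 to 2.91 and 2.75 at E14.5. Psmb7, 1 of the 14 subunits that fell, and Psmb10 moved in opposite directions, and the counterparts of Psmb9 and Psmb8 are not given here. The 33.3% of subunits that fell compare with 21.2% of all genes. In Psmb7 and the 3 immunoproteasome genes the stages did not overlap.

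Among the interferon-stimulated genes, Oasl2, an antiviral protein, rose 4.34-fold from -2.22 and -2.05 at E12.5 to 0.02 and -0.06 at E14.5. Oas1a rose by 0.84 ± 0.18, Gbp3 by 0.71 ± 0.11 and Isg15 by 0.50 ± 0.14. The factor genes Irf7 and Stat2 rose by 1.38 ± 0.34 and 0.63 ± 0.12, with 1 of 2 E12.5 arrays of Irf7 above background. Irf1 was at 0.00 ± 0.12 and did not pass. Ifitm3, a membrane protein that blocks viral entry, rose by 1.05 ± 0.18, whereas its neighbour in the family Ifitm1 fell by 1.30 ± 0.38. The part of germ cells in either change was not tested. Ddx58, the RNA sensor RIG-I, fell by 0.87 ± 0.24, and Ifit2, the third member that fell, was at -0.58 ± 0.13 on its brightest probe and at 1.30 on its other probe. Leaving out 1 array ended the calls of Psmb9 (adjusted p = 0.072 to 0.0865 without E12.5 array 1 or 2 or E14.5 array 2) and Psmb10 (adjusted p = 0.0602 without E14.5 array 1, lost also with median scaling). It also ended those of Irf7 (adjusted p = 0.0596 to 0.0775 without E12.5 array 2 or E14.5 array 1 or 2), Isg15 (adjusted p = 0.0528 to 0.118 without E12.5 array 1 or 2 or E14.5 array 1, lost also with quantile normalization, median scaling, no background filter and the 4 arrays alone) and Oas1a (adjusted p = 0.0632 to 0.064 without E12.5 array 2 or E14.5 array 2). Of the members that fell, it ended the calls of Ifitm1 (adjusted p = 0.0636 to 0.156 without E12.5 array 1 or 2 or E14.5 array 2, lost also with no background filter and the robust prior), Ddx58 (adjusted p = 0.0603 to 0.119 without E12.5 array 1 or 2 or E14.5 array 2, lost also with no background filter) and Ifit2 (adjusted p = 0.0517 to 0.0658 without E12.5 array 1 or E14.5 array 1 or 2, lost also with normexp and the mean of all probes). H2-Aa, Cd74, H2-T23, B2m, Tapbp, Tap2, Oas1a, Gbp3, Isg15, Irf7, Stat2, Irf1 and Ifitm3 were named after their values were seen.

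**Figure D4:**
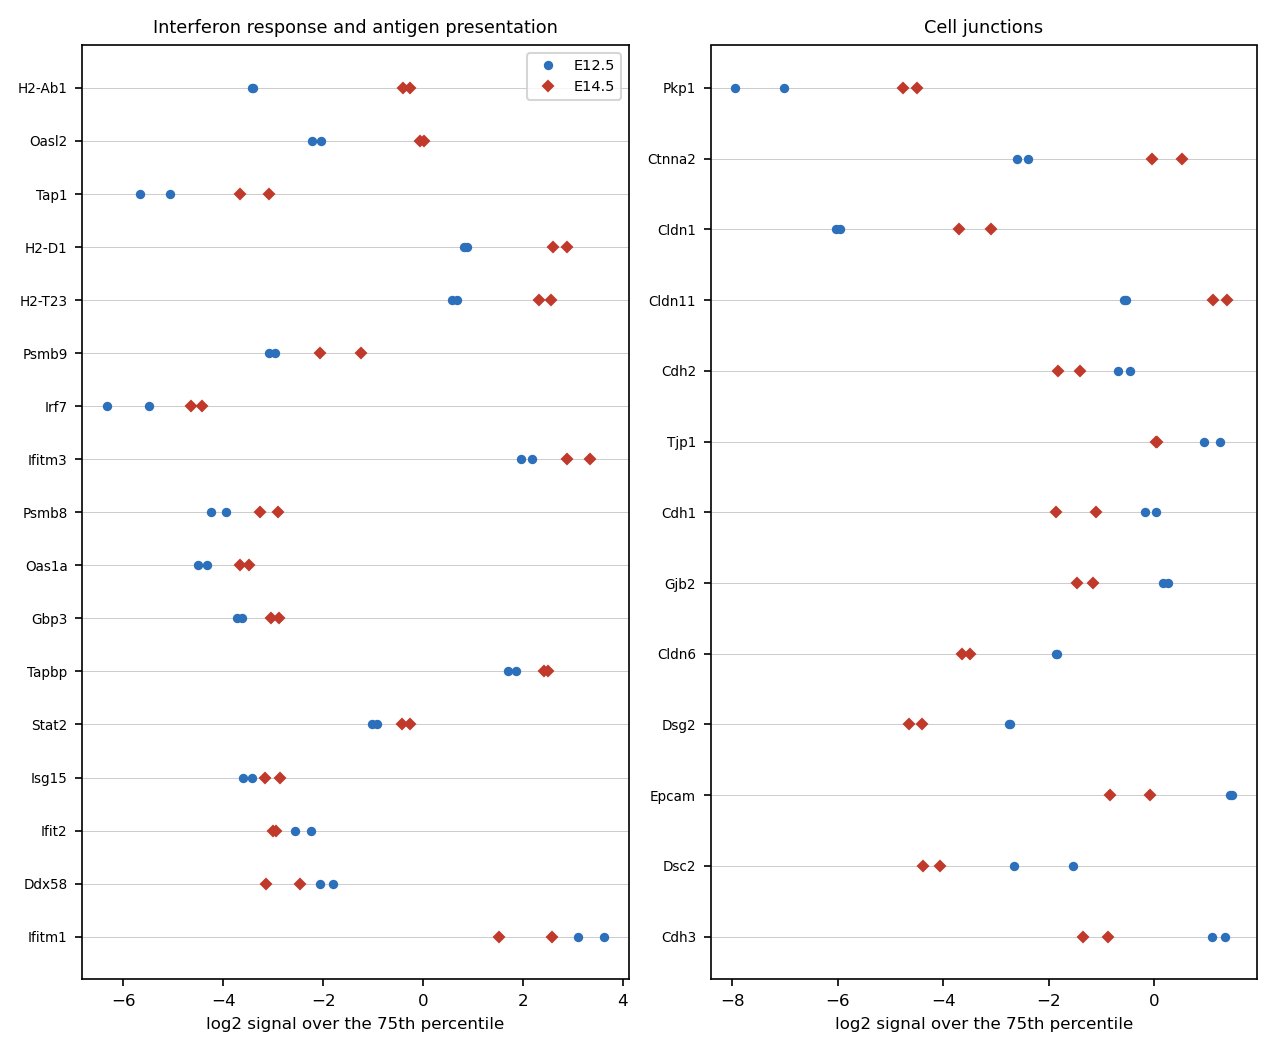
The log2 signal of each array over its 75th percentile is on the x axis for the members named in the text that passed the test, interferon and antigen presentation genes on the left and cell junction genes on the right, with blue circles for E12.5 and red diamonds for E14.5. On the left 14 of the 17 genes shown have a higher mean at E14.5, and on the right 9 of the 13 shown have a lower one.

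Macrophage markers were likewise more often higher. Of 19 tested, 10 rose, 0 fell and 9 did not pass (6 and 0 without E12.5 array 1, 5 and 0 without E14.5 array 1, 4 and 0 without E14.5 array 2, 5 and 0 with median scaling), with a median change of 0.59. That is 52.6% higher against 25.5% of all genes. Lyz2, the lysozyme of myeloid cells, gave 0.02 and 0.28 at E12.5 and 1.33 and 1.63 at E14.5, and Csf1r, the receptor macrophages need to survive, gave -2.38 and -2.01 at E12.5 and -1.29 and -1.07 at E14.5. Their changes were 1.33 ± 0.18 and 1.02 ± 0.16. The summed linear signal of the 19 markers, in units of the 75th percentile, was 5.04 and 6.64 at E12.5 and 8.56 and 9.32 at E14.5. Of the 24 markers listed, Cd163, Itgam and Spi1 were below background on all 4 arrays and Cd68 and Mpeg1 had no named probe. Adgre1, the F4/80 antigen, was at -0.06 ± 0.14 and did not pass. The part of macrophages in the immune rises was not tested.

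Lysosomal genes, which break down cell contents and engulfed material, were more often higher than lower. Of 51 cathepsin and lysosome genes tested, 24 rose, 5 fell and 22 did not pass (21 and 3 without E12.5 array 1, 20 and 3 without E14.5 array 1, 17 and 3 without E14.5 array 2), with a median change of 0.38. That is 47.1% higher and 9.80% lower, against 25.5% and 21.2% of all genes. Grn, the gene of progranulin, gave 7.04 and 7.18 at E12.5 and 8.66 and 8.42 at E14.5 and rose 2.69-fold on its brightest probe, but its other probe gave -0.07. Ctsf, a cysteine protease, gave 0.06 and 0.06 at E12.5 and 1.40 and 1.59 at E14.5 and rose 2.7-fold (adjusted p = 0.000759). Ctsd, the main aspartic protease of the lysosome, gave 3.11 and 3.37 at E12.5 and 4.39 and 4.28 at E14.5 and rose 2.14-fold. Gaa, which breaks down glycogen, rose by 1.20 ± 0.10.

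Of the lysosomal genes that fell, Ctsw was at -0.95 ± 0.20, Scarb2 at -0.57 ± 0.11 and Manba at -0.41 ± 0.10. Hexa, which encodes a chain of hexosaminidase, rose by 0.73 ± 0.11. Of the membrane proteins of the organelle, Lamp1 was at 0.14 ± 0.11, Lamp2 at 0.02 ± 0.13 and Laptm4a at 0.08 ± 0.11, and none passed. Ctss, which is also a macrophage marker, rose by 0.99 ± 0.21, and Ctsg, a protease of granulocytes, rose by 1.94 ± 0.44. Leaving out 1 array ended the calls of Ctsg (adjusted p = 0.0602 to 0.0827 without E12.5 array 2 or E14.5 array 1) and Ctss (adjusted p = 0.0581 without E14.5 array 2), and of Ctsw (adjusted p = 0.058 without E14.5 array 2, lost also with normexp) and Manba (adjusted p = 0.0618 to 0.0797 without E12.5 array 1 or E14.5 array 1 or 2). Ctsd, Gaa, Hexa, Lamp1, Lamp2, Ctsw, Scarb2 and Manba were named after their values were seen.

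Secreted defence proteins and cytokines were mixed. Of complement and coagulation genes 37.2% rose and 23.3% fell, against 25.5% and 21.2% of all genes. Of chemokine and cytokine genes 38.3% rose and 14.9% fell. Of 43 complement and coagulation genes, 16 rose, 10 fell and 17 did not pass (8 and 4 without E14.5 array 2), with a median change of 0.34. Median scaling gave 9 higher and 12 lower. C4b, a complement factor of the classical pathway, rose 16.3-fold from -3.69 and -4.23 at E12.5 to -0.19 and 0.32 at E14.5. Clu, the secreted chaperone clusterin, rose 5.98-fold from 2.41 and 2.90 at E12.5 to 5.12 and 5.35 at E14.5. F2, the gene of prothrombin, rose by 2.83 ± 0.46. Of 94 chemokine and cytokine genes, 36 rose, 14 fell and 44 did not pass (25 and 9 without E14.5 array 2, 44 and 8 with normexp, 30 and 9 with no background filter), with a median change of 0.27. Il18, a cytokine of the interleukin 1 family, rose by 2.22 ± 0.29, and Il17re, a receptor chain for interleukin 17C, rose by 2.05 ± 0.19. Il1rn, which blocks the interleukin 1 receptor, came from below background and rose at least 2.33-fold.

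Enzymes that handle foreign compounds and oxidants were more often higher than lower. Of 117 genes tested, 41 rose, 17 fell and 59 did not pass (33 and 11 without E12.5 array 2, 33 and 9 without E14.5 array 2), with a median change of 0.16. The shares were 35.0% higher and 14.5% lower, against 25.5% and 21.2% of all genes, and median scaling gave 34 higher and 19 lower. Gsta2 and Gsta1, alpha class glutathione transferases that also serve steroid-making tissue, led. Gsta2 gave -4.31 and -4.22 at E12.5 and -0.33 and 0.24 at E14.5 and rose 18.7-fold, and Gsta1 gave -3.21 and -2.57 at E12.5 and 0.50 and 1.04 at E14.5 and rose 12.6-fold. They are near-identical copies, so their probes may share signal. Ephx1, the microsomal epoxide hydrolase, gave -2.79 and -2.74 at E12.5 and 0.61 and 1.27 at E14.5 and rose by 3.70 ± 0.27, with 3.88 on its other probe.

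Catalase (Cat) fell by 0.68 ± 0.11 and Txnrd1, the thioredoxin reductase of the cytosol, fell by 1.11 ± 0.14. Sod3, the extracellular superoxide dismutase, came from below background and rose at least 2.66-fold, and Sod1, that of the cytosol, was at -0.11 ± 0.12 and did not pass. Cyp4a14, a fatty acid hydroxylase of liver, gave -4.28 and -5.84 at E12.5 and -8.06 and -8.48 at E14.5 and was at least 2.39-fold lower, a call lost with another background correction (adjusted p = 0.0783 with normexp background correction). Cat, Txnrd1 and Sod3 were named after their values were seen.

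Lipid genes were more often higher than lower. Of 52 lipid storage and fatty acid oxidation genes, 23 rose, 7 fell and 22 did not pass (21 and 4 without E12.5 array 2, 19 and 4 without E14.5 array 2, 20 and 11 with median scaling, 23 and 13 with the robust prior), with a median change of 0.15. That is 44.2% higher and 13.5% lower against 25.5% and 21.2% of all genes, and with median scaling the median change was 0.00. The lipid droplet coat gene Plin1 gave 0.12 and -0.11 at E12.5 and 1.83 and 1.95 at E14.5 and rose 3.71-fold. Cidea, which fuses droplets, gave 0.04 and 0.32 at E12.5 and 2.14 and 2.43 at E14.5 and rose 4.3-fold. Dgat2, which makes triglyceride, gave 0.95 and 0.81 at E12.5 and 2.56 and 2.65 at E14.5 and rose 3.3-fold, with its other probes at 2.09 and 1.90. Elovl3, an elongase of very long fatty acids, was below background at E12.5 and rose at least 5.04-fold. Fasn, the fatty acid synthase, was at 0.18 ± 0.12 and did not pass. Since fetal Leydig cells store lipid for steroid synthesis, the 21 rises among 32 Leydig genes that were set aside stand beside them, and the part of Leydig cells was not tested.

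Among 32 nuclear receptor genes, 12 rose, 4 fell and 16 did not pass (10 and 1 without E12.5 array 2, 10 and 1 without E14.5 array 2), with a median change of 0.12. Pparg, the fatty acid sensor of fat cells, gave -2.98 and -2.85 at E12.5 and -0.88 and -0.77 at E14.5 and rose 4.24-fold. Esr1, an oestrogen receptor, gave -4.28 and -4.13 at E12.5 and -2.06 and -2.19 at E14.5 and rose 4.22-fold. Nr2f2, a factor of interstitial cells, was at -0.03 ± 0.14 and did not pass. Nr5a2 fell by 1.90 ± 0.26. Nr5a2 was named after its values were seen. Of nuclear receptor genes 37.5% rose and 12.5% fell, and of prostaglandin and eicosanoid genes 35.7% rose and 21.4% fell. Over all genes 25.5% rose and 21.2% fell. Of 28 prostaglandin and eicosanoid genes, 10 rose, 6 fell and 12 did not pass (9 and 3 without E12.5 array 2, 6 and 3 without E14.5 array 2, 7 and 3 with no background filter), with a median change of 0.10, and quantile normalization gave 7 higher and 7 lower. The largest changes were in the lipoxygenase gene Alox5 (1.86 ± 0.17), the prostaglandin carrier Slco2a1 (1.50 ± 0.13, with 0.45 on its other probe) and the thromboxane receptor Tbxa2r (1.45 ± 0.12).

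Markers of the contractile peritubular and interstitial cells were mostly higher. Of 26 tested, 15 rose, 1 fell and 10 did not pass (13 and 2 without E12.5 array 2), with a median change of 0.70. That is 57.7% higher against 25.5% of all genes, and 10 to 14 were higher with 1 array left out. Cnn1, the smooth muscle calponin, gave -2.88 and -3.12 at E12.5 and -0.13 and 0.51 at E14.5 and rose 9.13-fold (adjusted p = 0.00074). Tagln, an actin-binding protein of smooth muscle, gave 1.28 and 1.72 at E12.5 and 3.52 and 3.88 at E14.5 and rose 4.59-fold, and Acta2, the smooth muscle actin, gave 2.61 and 3.09 at E12.5 and 4.90 and 5.16 at E14.5 and rose 4.53-fold, with 1.83 and 0.19 on its other probes. All 3 genes had E14.5 arrays above the E12.5 arrays, and Acta2 was named after its values were seen. Inhba, the activin A subunit made by fetal Leydig cells, rose 5.83-fold from 0.13 and -0.07 at E12.5 to 2.30 and 2.85 at E14.5. Wnt5a was the 1 member that fell (-0.69 ± 0.12). The summed signal of the list was 135 and 147 at E12.5 and 224 and 259.6 at E14.5, higher on both E14.5 arrays. Of the 27 markers listed, Gli2 had no named probe, and all others were tested.

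SRF and TEAD are factors that read the state of the actin skeleton. Of their listed genes 37.5% rose and 20.8% fell, against 25.5% and 21.2% of all genes. Of 24 genes on their list, 9 rose, 5 fell and 10 did not pass (5 and 5 without E14.5 array 2), with a median change of 0.17. The cofactor genes Mrtfa and Mrtfb rose by 1.20 ± 0.12 and 1.66 ± 0.19, and Acta1, a skeletal actin that SRF drives, gave -2.86 and -2.33 at E12.5 and -0.90 and -0.60 at E14.5 and rose 3.6-fold. Srf itself fell by 0.78 ± 0.15, and Yap1, the TEAD cofactor, was at -0.01 ± 0.14 and did not pass. Actb gave -1.96 and -0.57 at E12.5 and 0.56 and 0.73 at E14.5 with E12.5 arrays far apart, a call lost with 1 array left out (adjusted p = 0.0642 without E14.5 array 2). Mrtfa, Srf and Yap1 were named after their values were seen.

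Growth factors of the BMP and TGF-beta family act through paired receptors and are held back by secreted binders. Of 58 BMP and TGF-beta genes, 18 rose, 8 fell and 32 did not pass (15 and 5 without E12.5 array 1, 13 and 5 without E14.5 array 1, 13 and 4 without E14.5 array 2, 14 and 5 with no background filter), with a median change of 0.14, and median scaling gave 13 higher and 13 lower. The shares were 31.0% higher and 13.8% lower, against 25.5% and 21.2% of all genes. The ligand gene Bmp8b came from below background and rose at least 2.64-fold. Sostdc1, which blocks BMP and Wnt ligands, gave 0.06 and -0.05 at E12.5 and 1.91 and 2.13 at E14.5 and rose 4.04-fold, and Ltbp3, which tethers latent TGF-beta in the matrix, gave 1.59 and 1.53 at E12.5 and 2.98 and 3.28 at E14.5 and rose 2.97-fold. Nog, the BMP antagonist noggin, rose by 1.55 ± 0.31, and Ltbp2 and Ltbp4 rose by 1.55 ± 0.26 and 1.10 ± 0.20. On the receiving side the type I receptor gene Acvr1 fell by 1.13 ± 0.11 along with Acvr1c. Nog, Ltbp2, Ltbp4 and Acvr1 were named after their values were seen.

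Of 23 genes of the insulin-like growth factor system, 6 rose, 7 fell and 10 did not pass, with a median change of 0.00. Pappa, the protease that frees the growth factor from its binding proteins, rose by 1.61 ± 0.24 on its brightest probe and by 0.31 on the other. The binding protein genes Igfbp6 and Igfbp1 went opposite ways: Igfbp6 rose by 1.53 ± 0.13 and Igfbp1 fell by 1.44 ± 0.28, a call lost with 1 array left out (adjusted p = 0.0522 without E12.5 array 2). Igf2, the main fetal ligand, was at -0.33 ± 0.12 on its brightest probe and did not pass, with -0.65 on its other probe. Of 46 peptide hormone genes, 15 rose, 5 fell and 26 did not pass (14 and 8 with median scaling, 21 and 2 with normexp), with a median change of 0.30. The median was 0.15 with median scaling and 0.06 without E14.5 array 1. Of insulin-like growth factor genes 26.1% rose and 30.4% fell, and of peptide hormone genes 32.6% rose and 10.9% fell. Over all genes 25.5% rose and 21.2% fell. Agt, the precursor of angiotensin, gave -2.05 and -1.47 at E12.5 and 1.42 and 1.53 at E14.5 and rose 9.42-fold, and Ren1 and Ren2, the genes of the enzyme that cuts it, rose as well. Pnoc, the nociceptin precursor, gave -5.88 and -5.84 at E12.5 and -2.92 and -2.41 at E14.5 and rose 9.16-fold, and Pomc was at -0.29 ± 0.14 and did not pass.

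Among 48 metalloprotease genes, 16 rose, 9 fell and 23 did not pass (12 and 5 without E12.5 array 1, 10 and 8 without E14.5 array 2, 19 and 5 with normexp), with a median change of 0.32, and median scaling gave 12 higher and 11 lower. The shares were 33.3% higher and 18.75% lower, against 25.5% and 21.2% of all genes. Of serpin genes 16.7% rose and 25.0% fell. Adam33, a protease of smooth muscle and fibroblasts, rose 3.86-fold from -4.23 and -4.29 at E12.5 to -2.16 and -2.46 at E14.5. Mmp19 came from below background and rose at least 1.86-fold, while Mmp16 fell below it and was at least 3.29-fold lower. Mmp14 (-0.17 ± 0.13, with -0.59 on its other probe) and the inhibitor gene Timp3 (0.08 ± 0.15) did not pass. Of 24 serpin genes, 4 rose, 6 fell and 14 did not pass (2 and 8 without E12.5 array 1, 2 and 6 without E12.5 array 2, 2 and 6 without E14.5 array 1, 1 and 6 without E14.5 array 2), with a median change of -0.28. Serpina5, an inhibitor of protein C, rose 4.04-fold from -4.59 and -4.03 at E12.5 to -2.52 and -2.07 at E14.5, opposite to the fall of Proc itself.

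Genes of membrane transport were more often higher. Of 109 ion channel genes, 35 rose, 12 fell and 62 did not pass (34 and 6 without E12.5 array 1, 23 and 11 without E14.5 array 2, 53 and 7 with normexp, 30 and 6 with no background filter), with a median change of 0.23. Kcnk3, a potassium leak channel also known from the adrenal cortex, gave -2.37 and -2.16 at E12.5 and 1.64 and 1.76 at E14.5 and rose 15.6-fold, with 4.13 on its other probe. Kcnip4, a subunit that binds potassium channels, rose at least 2.19-fold, and Kcnc1 was at least 4.88-fold lower. Of 280 solute carriers, 99 rose, 52 fell and 129 did not pass, with a median change of 0.18. Median scaling gave 72 higher and 64 lower, with a median of 0.03. Slc9b1, a sodium exchanger of sperm, rose by 3.31 ± 0.37 on its brightest probe and by 1.11 on its other, with 1 of 2 E12.5 arrays above background. Slc44a4, a choline transporter, came from below background and rose at least 2.76-fold. Slc25a5, a nucleotide carrier of mitochondria, was at -0.38 ± 0.15 and did not pass.

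Cell junction genes fell more often than they rose. Cadherins, desmosomes, tight junctions and gap junctions hold epithelial cells together. Of 73 tested, 12 rose, 34 fell and 27 did not pass, with a median change of -0.35. That is 46.6% lower against 21.2% of all genes, and the number lower was 23 to 31 with 1 array left out. The cadherin gene Cdh3 (P-cadherin) gave 1.35 and 1.10 at E12.5 and -0.88 and -1.35 at E14.5 and was 5.06-fold lower (adjusted p = 0.000745). The desmosome gene Dsg2 gave -2.74 and -2.75 at E12.5 and -4.41 and -4.64 at E14.5 and was 3.44-fold lower. The E12.5 arrays lay above the E14.5 arrays in both genes.

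Falls were found in each class of junction. Cdh1 (E-cadherin) fell by 1.41 ± 0.26, Cdh2 (N-cadherin) by 1.05 ± 0.17 and the desmosomal Dsc2 by 2.13 ± 0.35. The connexin gene Gjb2 fell by 1.52 ± 0.18, the tight junction claudin Cldn6 fell by 1.71 ± 0.14, and the scaffold gene Tjp1 (ZO-1) fell by 1.05 ± 0.13. Rises were fewer: Cldn11, the claudin of the Sertoli cell barrier, rose 3.48-fold from -0.54 and -0.57 at E12.5 to 1.11 and 1.38 at E14.5, and Ctnna2, an alpha-catenin of neurons, rose 6.71-fold from -2.40 and -2.61 at E12.5 to -0.05 and 0.54 at E14.5. Cldn1 and the plaque gene Pkp1 came from below background and rose at least 6.04-fold and at least 3.12-fold. Ctnnb1, the beta-catenin gene, was at -0.20 ± 0.11 and did not pass. Cdh3, Dsg2, Cdh1, Cdh2, Dsc2, Gjb2, Cldn6, Tjp1 and Cldn11 were named after their values were seen.

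Markers of the mesonephros and its ducts, epithelia that lie against the gonad, were also more often lower, at 61.1% against 21.2% of all genes. Of 18 tested, 2 rose, 11 fell and 5 did not pass (2 and 6 without E12.5 array 1, 1 and 7 without E12.5 array 2, 1 and 6 without E14.5 array 2, 2 and 7 with no background filter), with a median change of -0.57. Lhx1, a factor of the nephric duct, gave -0.49 and -0.21 at E12.5 and -2.75 and -3.37 at E14.5 and fell by 2.70 ± 0.31. Epcam, a surface protein of epithelia and of germ cells, gave 1.43 and 1.48 at E12.5 and -0.07 and -0.84 at E14.5 and fell by 1.91 ± 0.25. Emx2, which the urogenital ridge needs, fell by 1.48 ± 0.15. Pax2 and Osr1 rose, by 0.82 ± 0.19 and 1.02 ± 0.23, calls lost for Pax2 (adjusted p = 0.0762 without E12.5 array 2) and Osr1 (adjusted p = 0.0681 without E14.5 array 2), and 1 of 2 E12.5 arrays of Pax2 was above background. The summed signal of the 18 markers was 25.2 and 25.8 at E12.5 and 18.0 and 13.4 at E14.5. Of the 21 markers listed, Ret and Six2 were below background on all 4 arrays and Umod on 3 of them. The lists share Cdh1, Cdh16 and Epcam, and the part of duct tissue in the junction falls was not tested. Cdh1, Epcam and Cldn6 are also known from early germ cells. Of the 96 germ cell genes set aside, 52 rose, 24 fell and 20 did not pass (49 and 14 without E12.5 array 2), and their part in these falls was not tested either.

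Keratins and other intermediate filaments, which the junctions anchor, moved in both directions. The shares were 27.0% higher and 24.3% lower, against 25.5% and 21.2% of all genes. Of 37 tested, 10 rose, 9 fell and 18 did not pass (11 and 5 without E12.5 array 2, 10 and 4 without E14.5 array 2, 10 and 4 with no background filter), with a median change of -0.18, and median scaling gave 11 higher and 13 lower. Krt222 fell by 2.45 ± 0.38 from -0.87 and -0.82 at E12.5 to -2.82 and -3.77 at E14.5. Nefm and Nefh, neurofilament genes, went opposite ways at -1.96 ± 0.26 and 1.34 ± 0.12.

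Genes of splicing, translation and secretion were more often lower than higher. Shares lower were 37.1% for splicing factors, 30.9% for translation factors and 31.6% for tRNA synthetases, against 21.2% of all genes. That of endoplasmic reticulum stress and secretion genes was 36.5%. Those of the cytosolic and mitochondrial ribosome were 8.64% and 19.7%, below that of all genes. Of 62 splicing factors, 3 rose, 23 fell and 36 did not pass (2 and 14 without E14.5 array 2), with a median change of -0.28. Hnrnpc, which packages nascent RNA, gave 4.24 and 4.26 at E12.5 and 3.12 and 2.57 at E14.5 and was 2.66-fold lower (adjusted p = 0.00302). U2af1, which finds the 3′ splice site, gave 5.22 and 5.26 at E12.5 and 4.25 and 3.89 at E14.5 and was 2.24-fold lower, with -0.57 on its other probe. Sf3b1, of the branch point complex, was at -1.26 ± 0.11 on its brightest probe and at -0.14 on its other. Prpf19, a ubiquitin ligase of the spliceosome, went the other way, giving 0.65 and 0.83 at E12.5 and 3.26 and 2.80 at E14.5 and rising 4.89-fold. The other rises were Snrpd3 (0.96 ± 0.29) and Prpf40b (0.68 ± 0.13), and the Snrpd3 call was lost with 1 array left out (adjusted p = 0.0736 to 0.162 without E12.5 array 1 or E14.5 array 1 or 2, lost also with median scaling, no background filter and the replicate block).

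Genes of the ribosome itself mostly did not pass. Of 81 cytosolic ribosomal protein genes, 2 rose, 7 fell and 72 did not pass (4 and 3 without E12.5 array 2, 3 and 4 without E14.5 array 2, 4 and 11 with normexp), with a median change of -0.12, against a background where 46.7% of all genes passed. The rises were those of Rpl22l1 (1.10 ± 0.23) and Rpl3l (1.59 ± 0.11), which are paralogs of Rpl22 and Rpl3 with a restricted expression. Rpl4 fell by 0.87 ± 0.14 and Rps15 by 0.86 ± 0.16. Ribosomal protein genes have many processed copies, so a probe may read more than 1 of them. Of 76 genes of the mitochondrial ribosome, 1 rose, 15 fell and 60 did not pass (0 and 15 without E12.5 array 1, 5 and 8 without E12.5 array 2, 0 and 12 without E14.5 array 1, 0 and 7 without E14.5 array 2), with a median change of -0.12. Mrpl15 had the largest fall among them (-1.25 ± 0.14).

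Of 55 translation factors, 5 rose, 17 fell and 33 did not pass (3 and 15 without E12.5 array 1, 3 and 11 without E12.5 array 2, 2 and 16 without E14.5 array 1, 5 and 9 without E14.5 array 2, 1 and 19 with median scaling, 8 and 20 with normexp, 3 and 16 with no background filter), with a median change of -0.22. Eif2a, an initiation factor, gave 1.73 and 1.99 at E12.5 and 0.86 and 0.50 at E14.5 and was 2.26-fold lower, and the elongation factor gene Eef1a1 fell by 0.99 ± 0.14 on its brightest probe with -0.38 on its other. Eef1g (-0.12 ± 0.12) and Eif3g (0.12 ± 0.14) did not pass. Of 19 tRNA synthetase genes, 1 rose, 6 fell and 12 did not pass (0 and 1 without E12.5 array 1, 0 and 3 without E12.5 array 2, 0 and 1 without E14.5 array 1, 0 and 2 without E14.5 array 2), with a median change of -0.06. The 1 rise, that of Sars (0.39 ± 0.12), was lost with 1 array left out (adjusted p = 0.051 to 0.157 without E12.5 array 1 or 2 or E14.5 array 1 or 2, lost also with median scaling, no background filter, the 4 arrays alone and the replicate block). Among the proteasome genes Psma4 gave 3.29 and 3.86 at E12.5 and 2.46 and 2.27 at E14.5 and was 2.32-fold lower, with -1.08 on its other probe. Of 52 genes of endoplasmic reticulum stress and secretion, 8 rose, 19 fell and 25 did not pass (7 and 12 without E12.5 array 1, 6 and 11 without E12.5 array 2, 5 and 12 without E14.5 array 2, 5 and 22 with median scaling), with a median change of -0.16, and the folding enzyme gene Pdia4 fell by 1.27 ± 0.17, while the stress factor Atf3 rose by 1.09 ± 0.12.

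One-carbon, polyamine and creatine genes fell more often than they rose, with 35.6% lower against 21.2% of all genes. These pathways supply nucleotides, methyl groups and an energy buffer to growing cells. Of 45 tested, 5 rose, 16 fell and 24 did not pass (2 and 12 without E12.5 array 1, 2 and 14 without E12.5 array 2, 3 and 15 without E14.5 array 1, 2 and 13 without E14.5 array 2, 2 and 19 with median scaling), with a median change of -0.28. Cth, which makes cysteine from cystathionine, gave -0.35 and -0.41 at E12.5 and -1.81 and -1.90 at E14.5 and was 2.77-fold lower. Mthfd1, a folate enzyme, gave 2.96 and 3.12 at E12.5 and 2.05 and 1.66 at E14.5 and was 2.27-fold lower, and Ckb, the brain-type creatine kinase, gave 3.75 and 3.42 at E12.5 and 2.39 and 2.29 at E14.5 and was 2.37-fold lower, with -1.20 on its other probe. Ckb encodes the kinase that Asb9 is known to bind, and Asb9 was among the largest rises. Amd1, of polyamine synthesis, fell by 1.14 ± 0.13, and Odc1, the first enzyme of that pathway, was at -0.20 ± 0.18 and did not pass.

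Chromatin genes showed about the background in both directions. Shares higher and lower were 23.5% and 24.5% for modifiers, 23.7% and 18.4% for histones and 20.3% and 18.4% for Zfp genes. Over all genes they were 25.5% and 21.2%. Of 98 histone and chromatin modifiers, 23 rose, 24 fell and 51 did not pass (15 and 20 without E14.5 array 1, 12 and 14 without E14.5 array 2), with a median change of -0.05. Kdm4d, a histone H3 demethylase known from the testis, gave -4.49 and -4.48 at E12.5 and -1.56 and -1.26 at E14.5 and rose 8.42-fold. Hdac2, a histone deacetylase, gave 0.27 and 0.36 at E12.5 and -1.20 and -1.31 at E14.5 and was 2.97-fold lower. Of 38 histone genes, 9 rose, 7 fell and 22 did not pass (3 and 4 without E12.5 array 1, 4 and 3 without E12.5 array 2, 2 and 4 without E14.5 array 1, 5 and 1 without E14.5 array 2, 2 and 5 with no background filter), with a median change of -0.05, and median scaling gave 4 higher and 9 lower. Near-identical histone copies may share signal. Of 261 Zfp genes, 53 rose, 48 fell and 160 did not pass (32 and 32 without E12.5 array 1, 36 and 28 without E12.5 array 2, 31 and 34 without E14.5 array 1, 23 and 23 without E14.5 array 2, 33 and 40 with no background filter), with a median change of 0.05, and median scaling gave 22 higher and 58 lower. The epidermal factor Zfp750 had the largest change among them, a fall of 5.08-fold from -2.11 and -1.78 at E12.5 to -3.87 and -4.71 at E14.5.

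Imprinted genes, which are read from 1 parental copy, moved both ways. The shares were 32.6% higher and 23.9% lower, against 25.5% and 21.2% of all genes. Those of the homeobox genes below were 29.2% and 27.8%. Of 46 tested, 15 rose, 11 fell and 20 did not pass (11 and 7 without E12.5 array 1, 14 and 7 without E12.5 array 2, 11 and 7 without E14.5 array 1, 10 and 6 without E14.5 array 2, 11 and 7 with no background filter), with a median change of -0.06, and median scaling gave 10 higher and 15 lower. Nap1l5 came from below background and rose at least 2.06-fold, and Rasgrf1 rose at least 2.25-fold. Tspan32 gave 0.55 and 0.54 at E12.5 and -0.49 and -1.09 at E14.5 and fell by 1.33 ± 0.23. Peg3 and Zim1, neighbours in 1 imprinted cluster, fell by 1.10 ± 0.17 and 1.14 ± 0.12 and were named after their values were seen. Mest was at -0.18 ± 0.11 and did not pass. Of 72 homeobox genes outside the Hox clusters, 21 rose, 20 fell and 31 did not pass, with a median change of 0.00, and median scaling gave 15 higher and 24 lower. Barx1 gave -1.56 and -1.44 at E12.5 and -3.16 and -3.42 at E14.5 and was 3.45-fold lower, and Vax2 came from below background and rose at least 2.21-fold.

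Axon guidance genes were near the background. Of 58 axon guidance genes, 12 rose, 14 fell and 32 did not pass (13 and 9 without E12.5 array 1), with a median change of 0.05, and normexp background correction gave 16 higher and 12 lower. Sema6c, a semaphorin, gave -1.55 and -1.42 at E12.5 and 0.40 and 0.32 at E14.5 and rose by 1.84 ± 0.11 on its brightest probe and by 0.39 on its other. Robo1, the Slit receptor, gave 1.54 and 1.34 at E12.5 and -0.07 and -0.29 at E14.5 and was 3.09-fold lower. Of 83 cilium genes, 25 rose, 15 fell and 43 did not pass (25 and 7 without E12.5 array 1, 18 and 9 without E12.5 array 2, 19 and 7 without E14.5 array 2), with a median change of 0.21. The largest fitted rises were in the dynein genes Dnali1 (at least 5.79-fold higher), Dnah11 (at least 3.9-fold) and Dnah8 (2.78 ± 0.42, but adjusted p = 0.115 with the mean of all probes). Of 37 tubulin and microtubule genes, 12 rose, 4 fell and 21 did not pass (6 and 3 without E12.5 array 1, 7 and 2 without E12.5 array 2, 9 and 2 without E14.5 array 1, 5 and 1 without E14.5 array 2), with a median change of 0.07, and median scaling gave 6 higher and 6 lower. Tubb3, the neuronal beta-tubulin, gave -2.07 and -1.72 at E12.5 and -0.31 and 0.16 at E14.5 and rose 3.53-fold. Of 20 clock genes, 9 rose, 4 fell and 7 did not pass (6 and 2 without E12.5 array 2, 7 and 2 without E14.5 array 1, 4 and 3 without E14.5 array 2), with a median change of 0.38, and median scaling gave 3 higher and 4 lower. Tef, an output gene of the clock, rose by 1.07 ± 0.14, and the repressor gene Cry1 fell by 1.01 ± 0.11, with -0.30 on its other probe.

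Markers of the remaining cell types moved in several directions. Shares higher and lower were 10.5% and 52.6% for erythroid markers and 33.3% and 26.7% for Sertoli markers. They were 10.5% and 26.3% for pregranulosa and 7.69% and 23.1% for coelomic surface markers, against 25.5% and 21.2% of all genes. Of 19 erythroid markers, 2 rose, 10 fell and 7 did not pass (0 and 9 without E12.5 array 1, 1 and 9 without E12.5 array 2, 0 and 9 without E14.5 array 2), with a median change of -1.17, the rises being the adult-type globins Hba-a1 (0.49 ± 0.16) and Hbb-bt (1.05 ± 0.25), whose probes may also read other globin copies. These calls were lost for Hba-a1 (adjusted p = 0.0839 to 0.202 without E12.5 array 1 or 2 or E14.5 array 2, lost also with quantile normalization, median scaling, no background filter, the mean of all probes, the 4 arrays alone and the replicate block) and Hbb-bt (adjusted p = 0.0515 to 0.0813 without E12.5 array 1 or E14.5 array 2). Of 27 endothelial markers, 3 rose, 11 fell and 13 did not pass (4 and 6 without E12.5 array 1, 2 and 6 without E14.5 array 2, 6 and 11 with normexp), with a median change of -0.22. The share of endothelial markers lower was 40.7%, against 21.2% of all genes. Kdr, the main receptor for VEGF, fell by 0.86 ± 0.13. Of 30 Sertoli markers, 10 rose, 8 fell and 12 did not pass (9 and 3 without E12.5 array 1, 10 and 4 without E12.5 array 2, 7 and 3 without E14.5 array 2), with a median change of 0.07. Of 19 pregranulosa markers, 2 rose, 5 fell and 12 did not pass, with a median change of -0.10, and of 13 coelomic surface markers, 1 rose, 3 fell and 9 did not pass (1 and 1 without E12.5 array 1, 2 and 2 without E12.5 array 2, 1 and 1 without E14.5 array 2), with a median change of -0.10. Msln, the mesothelin of surface cells, was the 1 rise, at 3.10 ± 0.33, with 1 of 2 E12.5 arrays above background.

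Nerve, muscle, adrenal and lymphoid markers were included to watch for other tissue and cells. Of 15 neural and glial markers, 3 rose, 2 fell and 10 did not pass (4 and 4 without E12.5 array 1, 6 and 2 without E12.5 array 2, 6 and 0 with normexp), with a median change of 0.29: Elavl3 (2.28 ± 0.32), Uchl1 (2.06 ± 0.20) and Tubb3 rose, and Gap43 (-1.84 ± 0.31, 1 of 2 E14.5 arrays above background) and Stmn2 (at least 2.54-fold lower) fell. Both falls were lost with another background correction, Gap43 at adjusted p = 0.195 with normexp background correction and Stmn2 at adjusted p = 0.808 with normexp background correction. Uchl1 is also a germ cell gene. Of 17 muscle markers, 8 rose, 5 fell and 4 did not pass, with a median change of 0.24. The heart actin Actc1 was at 1.86 ± 0.25 and Myl1 at -2.61 ± 0.33, the latter above background on 1 of 2 E14.5 arrays. Of 7 adrenal markers, 4 rose, 2 fell and 1 did not pass (4 and 1 without E12.5 array 1, 4 and 1 without E12.5 array 2, 4 and 1 without E14.5 array 1, 4 and 1 without E14.5 array 2), with a median change of 1.01. Mrap and Akr1b7, which fetal Leydig cells also express, rose by 3.07 ± 0.11 and 2.08 ± 0.16, and Mc2r, the receptor for the adrenal hormone ACTH, was at -0.20 ± 0.10 and did not pass. The lowest change among the 7 adrenal markers was -3.11, and 1 of the 2 falls was at least 2-fold. Of 9 lymphoid markers, 2 rose, 3 fell and 4 did not pass (2 and 1 without E12.5 array 1, 1 and 2 without E14.5 array 1, 2 and 1 without E14.5 array 2), with a median change of -0.47. Of the 18 listed, 7 were below background, Rag1, Rag2 and Pax5 among them.

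The later step, E14.5 minus E13.5, lies within 1 slide and shares the E14.5 arrays with the comparison above. In it 7 of 13484 genes (0.0519%) passed, so its values are given beside those of the whole window without a call. The list medians were 0.35 for the interferon genes, 0.13 for lysosomal genes, 0.23 for peritubular markers, 0.05 for xenobiotic enzymes, -0.04 for cell junctions and -0.14 for splicing factors, against 0.58, 0.38, 0.70, 0.16, -0.35 and -0.28 over the whole window. Npy changed by 2.45 ± 0.29 in the later step (adjusted p = 0.0778) and by 4.56 ± 0.29 in the window. H2-Ab1 changed by 1.12 ± 0.13, C4b by 1.69 ± 0.30, Gsta2 by 1.34 ± 0.21 and Kcnk3 by 1.25 ± 0.14. Lypd4 was at 0.76 ± 0.28, Oasl2 at 0.33 ± 0.14 and Prpf19 at 0.31 ± 0.20. Of the genes that fell over the window, Dusp4 was at -2.21 ± 0.41, Acvr1c at -0.27 ± 0.44 and Cdh3 at -0.53 ± 0.18.

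**Figure D5:**
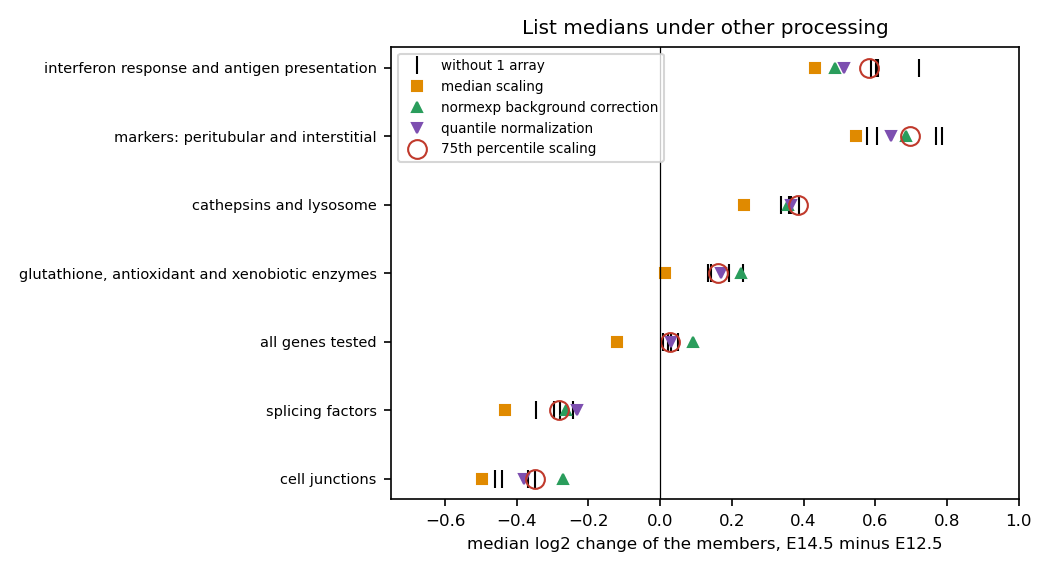
The x axis is the median log2 change of a list's members from E12.5 to E14.5; open red circles are the values reported, and the other marks are the same medians under median scaling (squares), normexp background correction (triangles up), quantile normalization (triangles down) and with 1 array left out (bars). The top 3 lists lie above 0 and the bottom 2 below 0 under each of these settings, while that of the xenobiotic enzymes comes down to 0.01 with median scaling.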

How the data were processed

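RNA of dissected gonads, kept in RNAlater and purified on RNeasy columns, was labelled with Cy3 from 0.20 µg per array, per the labels' protocols. The authors deposited a scanner file for each array from Agilent Feature Extraction 9.5, per the submitters' processing notes, and per the file headers its processed intensity had the background subtracted and a spatial trend removed, with no scaling from array to array. Whether the deposited table of 1 ratio per probe and stage was centred per gene is not stated, and it was used only as a check. Its medians were 0.963, 1.04 and 1.01 at E12.5, E13.5 and E14.5. In the authors' deposited table all 6299 of the 6299 called genes changed in the same direction, and over 25605 probes the differences correlated with those used here at a Pearson r of 1.00, so scale and direction are shared with it. What its ratios are relative to is not known.

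The log2 intensity was reduced by the 75th percentile of each array. Control spots and spots flagged as outliers were left out and spots of a probe were averaged, which left 41153 of 41174 probes. RefSeq accessions gave a symbol to 23545 probes and 16620 genes, and the brightest probe stood for a gene. A gene was kept if a stage had both its arrays well above background, and limma 3.58.1 in R 4.3.3 was fitted to all 6 arrays with stage as the only term and the p-values adjusted over all genes by the Benjamini-Hochberg method. Where a stage had no array above background, the fold is a lower bound, set against the lowest signal among probes well above background, or the probe's own signal if higher. No coordinate of the arrays was used, since their build differs from that of the promoter table.

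Genes named were the 15 largest rises and 15 largest falls with all probes in 1 direction and stages that did not overlap, then per list the 4 largest changes, up to 2 of the brightest that did not pass, and opposite members where 3 or fewer. Some genes that this rule names are not reported here. The members of the lists were chosen with earlier results of these data known. The fit was tested on simulated data with far fewer changed genes and no slide difference, which does not test the calls made here. Tables and plots were made with Python 3.11.15, pandas 2.3.3 and matplotlib 3.10.9. Normexp with an offset of 50, quantile normalization, median scaling, other filters on dim probes, averaging a gene's probes, a trended robust prior, the 4 arrays alone, a replicate block, a 2-fold minimum and each array left out were tried. The number of arrays limits the precision.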

Additional observations from a re-analysis of the deposited data

How the results depend on the processing

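Of 208 genes named and called, 176 lost the call under none of the 14 settings other than the 2-fold minimum, and 32 lost it under at least 1. A gene that a setting's background filter dropped was not tested there and not counted as lost. Lypd4 and others with a bound were thus tested under 13 of them. The count of genes changed, 6299, stayed within 1.5 times under every processing alternative but the 2-fold minimum, which left 1924 genes, 1251 higher and 673 lower. It was 6942 with normexp background correction, 6368 with quantile normalization, 5753 with median scaling and 5250 of 16620 genes without a background filter. Leaving out 1 array gave 3937 to 4863 genes, 2329 to 2684 higher and 1608 to 2236 lower. With the 2-fold minimum, 11 interferon genes, 7 lysosomal genes and 22 xenobiotic enzymes were higher, and 15 junction genes and 3 splicing factors lower. Without 1 array the higher members numbered 15 to 19, 17 to 21 and 30 to 35 in the same order and 10 to 14 for the peritubular markers, and the lower members numbered 23 to 31 and 14 to 19. Ifit2 reversed with the mean of all probes, to 0.36 (adjusted p = 0.419 by limma), since its probes disagree in sign.

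The replicate block, with array numbers paired across stages, gave 5831 genes, 3216 of them higher. Deviations of same-numbered arrays correlated at -0.04 for E12.5 with E13.5, -0.06 for E12.5 with E14.5 and 0.23 for E13.5 with E14.5. The numbers thus showed no pairing of E12.5 with E14.5 arrays, and a pairing of the later arrays is not excluded. A slide block could not be fitted, since the E12.5 slide holds no other stage. A change near background is a bound, and the probes not above it limit what can be read for lymphoid or other rare markers.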

Other observations

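Several X-linked gene families known from the testis were higher at E14.5, beside Nxf2 and Esx1. These families were picked after their values were seen, and their members are near-identical copies that may share signal. The part of germ cells in their rises was not tested. All 6 Magea genes tested rose, with a median change of 2.93, and Magea5 gave -3.39 and -3.22 at E12.5 and -0.55 and -0.40 at E14.5. The 4 Xlr genes examined, Xlr3c, Xlr4b, Xlr5a and Xlr5c, rose, with a median of 2.30, and Xlr itself was not counted among them. The 4 Ssx genes came from below background, so that their rises are bounds, at least 8.15-fold for Ssxb1, 5.22-fold for Ssxb2, 3.85-fold for Ssxb3 and 3.16-fold for Ssx9. The Ssx9 call was lost with 1 array left out (adjusted p = 0.107 to 0.14 without E12.5 array 1 or 2 or E14.5 array 2, lost also with no background filter). Fthl17e, a ferritin-like gene, gave -2.29 and -1.94 at E12.5 and 1.35 and 1.21 at E14.5 and rose by 3.40 ± 0.16. Of 484 X-linked genes tested, 157 rose (32.4% against 25.5% of all genes) and 112 fell (23.1% against 21.2%). Of at least 2-fold changes, 80 were rises (16.5% against 9.28%) and 37 were falls (7.64% against 4.99%).

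Most feedback genes of the ERK pathway examined were lower, beside Dusp4. This pathway carries growth factor signals such as FGF into the nucleus, where they switch on ETS factors and their own brakes. Of 9 other genes, picked after the fall of Dusp4 was seen, 8 were lower and 0 higher, with a median of -1.11, where 21.2% of all genes were lower. Etv5 gave -0.29 and -0.44 at E12.5 and -2.39 and -2.52 at E14.5 and fell by 2.09 ± 0.16, and Etv1 gave 0.93 and 1.11 at E12.5 and -0.85 and -1.28 at E14.5 and fell by 2.09 ± 0.19. The brake genes Spry4 and Dusp6 fell by 1.24 ± 0.25 and 1.11 ± 0.20, while Spry2 was at 0.03 ± 0.26 and did not pass. The Spry4 call was lost with 1 array left out (adjusted p = 0.0529 without E14.5 array 2), and the probes of Spred1, another of the 8, differed in sign. In the later step within 1 slide Etv5 was at -0.80 ± 0.16 and Spry4 at -0.45 ± 0.25.

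Genes of pancreatic-type digestive enzymes, also picked after their values were seen, went both ways: of 12 tested, 4 rose and 6 fell. Over all genes 25.5% rose and 21.2% fell. Clps was among the rises, as was Cela2a, an elastase gene, from below background by at least 1.42-fold with 1 of 2 E14.5 arrays above it, whereas Pnliprp1 and Pnlip fell by 2.56 ± 0.20 and 2.34 ± 0.14 along with Pnliprp2. Of 4 genes of the Ifi200 family of DNA sensors, 1 rose and 2 fell. The 2 that fell, Ifi211 and Ifi204, were not on the interferon list. Each fell by more than any member of that list, where the lowest change was -1.30. Ifi211 gave 0.57 and 0.38 at E12.5 and -2.82 and -2.11 at E14.5 and fell by 2.93 ± 0.31. Ifi204 gave 2.86 and 2.73 at E12.5 and -0.37 and 1.08 at E14.5 and fell by 2.44 ± 0.52, a call lost with 1 array left out (adjusted p = 0.0538 to 0.0596 without E12.5 array 1 or 2). The Ifi209 rise of 1.13 ± 0.16, with 1 of 2 E12.5 arrays above background, was lost when probes were averaged (adjusted p = 0.646 with the mean of all probes), its other probe being at -0.61.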
